A study of Mus musculus with 6 samples.

Results

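ADAM-TS-like proteins are secreted relatives of the ADAM-TS proteinases that keep the thrombospondin type 1 repeats of that family but have no proteinase domain. All 5 genes named Adamtsl1 to Adamtsl5 were taken from the deposited expression table by their symbols, out of 55426 genes, and all 5 passed the expression minimum for testing. The group was chosen by the lower TPM of Adamtsl3 in knockout than in control aortas, which was already known in these data, so every difference between genotypes that is given for these 5 genes is a description and not a test. The data came from abdominal aortas of 3 male Prdm16SMKO mice, which carry floxed Prdm16 alleles and Myh11-CreERT2, and of 3 male controls, which the study describes as wild-type mice with Myh11-CreERT2 and the labels only as control, all on a C57BL/6J background and each read as 1 library. Myh11-CreERT2 is a tamoxifen-inducible Cre recombinase under a smooth muscle myosin promoter, which acts in vascular smooth muscle cells (VSMCs) and also in smooth muscle of other organs. Its cassette is on the Y chromosome, so all mice were male. The study's methods give tamoxifen by gavage at 75 mg/kg/day for 5 days to males aged 8 to 10 weeks. They do not state at what age or how long after tamoxifen the sequenced aortas were taken, and the study describes these mice as kept without any pathological stimulus. Each library is treated as 1 mouse, and whether any mice were littermates is not given.

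Values are TPM, a relative transcript abundance scaled by transcript length to a total of 1000000 per library, so that levels can be compared between genes. The reads behind a TPM value are not recorded, so the depth of each value is unknown and no counting error could be given. Differences are log2 fold changes of TPM + 0.5, Prdm16SMKO minus control, from a limma fit over the 15775 genes whose mean reached 0.5 TPM. A gene was called at a Benjamini-Hochberg adjusted p under 0.05 over all of these genes. The log2 scale with a pseudocount understates the difference of genes at low TPM.

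In the wall of the aorta, ADAM-TS-like proteins are part of the extracellular matrix (ECM), where several of them bind fibrillin microfibrils, the scaffold on which elastin is laid down. Fibrillin microfibrils also hold latent TGF-beta through its binding proteins, and ADAMTSL2 and ADAMTSL4 are best known from inherited disorders of microfibrils in humans, geleophysic dysplasia and dislocation of the eye lens. Thrombospondin type 1 repeats are fucosylated by POFUT2 and extended by B3GLCT before the protein is secreted.

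Prdm16, the targeted gene, had 33.4, 36.8 and 30.8 TPM in the controls and 20.8, 27.7 and 14.8 TPM in the knockouts, by replicate number. Every Prdm16SMKO library was below every control library, and the log2 fold change was -0.70 (SE 0.23), which was not called (limma, adjusted p = 0.376). TPM covers all exons of the gene, and 109 exon bases are shared with an annotated gene on the other strand; the part of either in these values was not tested. The libraries carried VSMC markers throughout, with Acta2, the smooth muscle actin, at 5256 to 13020 TPM. Mitochondrial transcripts were 15.8% to 27.4% and ribosomal RNA locus transcripts 15.6% to 31.5% of all TPM, with overlapping ranges in both groups. Neuron and Schwann cell markers set 2 libraries apart, since their 6 genes summed to 323 TPM in Prdm16SMKO replicate 1 and to 83.0 TPM in control replicate 2, and Th, which makes catecholamines, was at 67.6 and 8.43 TPM in these and at 0 to 0.13 TPM in the others. Skeletal muscle markers also summed to 70.9 TPM in Prdm16SMKO replicate 1 and to at most 15.1 TPM in the other libraries. Prdm16SMKO replicate 3 stood apart by adipocyte markers, with Adipoq at 182 TPM and Ucp1, the uncoupling protein of brown fat, at 170 TPM, against at most 63.3 and 49.0 TPM in the other libraries. Prdm16SMKO replicate 2 had the highest summed endothelial, macrophage and fibroblast markers, at 436, 201 and 3075 TPM. Its Pecam1 was at 200 TPM, against at most 99.6 TPM in the other libraries, while its Kdr was the lowest, at 5.04 TPM. Values for the ADAM-TS-like genes without these libraries are given where they moved.

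In control aortas the levels of the 5 genes spanned a wide range. Adamtsl5, a short member of the family that binds fibrillin, was the highest with a mean of 50.7 ± 6.83 TPM (SD, n = 3), and Adamtsl3, a long member with several immunoglobulin-like repeats, followed at 35.3 ± 6.81 TPM (SD, n = 3). Adamtsl4 was at 12.3 ± 3.26 TPM, Adamtsl2 at 7.09 ± 3.02 TPM and Adamtsl1, also known as punctin, at 3.44 ± 0.305 TPM (SD, n = 3 each). These means were above those of 89.3%, 84.4%, 60.9%, 47.2% and 33.0% of the tested genes in control aortas, in the same order. The order within a library is given by group and with no test, since the low Adamtsl3 of the Prdm16SMKO libraries is what the genes were chosen for. Adamtsl5 was above Adamtsl3 in 6 of 6 libraries, with a mean log2 difference within a library of 0.52 in control and 1.29 in Prdm16SMKO mice, and the ranges of the 2 genes overlapped in neither group. Adamtsl3 was above Adamtsl4 in 6 of 6 libraries, by 1.51 in control and 0.54 in Prdm16SMKO mice, where the ranges overlapped. Adamtsl4 was above Adamtsl2 in 6 of 6 libraries, by 0.80 in control mice, where the ranges overlapped, and by 1.28 in Prdm16SMKO mice. Adamtsl2 was above Adamtsl1 by 0.86 in control mice, without overlap, while in Prdm16SMKO mice the difference was -0.16 and the ranges overlapped.

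Adamtsl3 (ENSMUSG00000070469) lies on chromosome 7 of GRCm38 from 82335694 to 82614450, on the plus strand, and its longest coding transcript in GENCODE M21 has 30 exons and 5118 coding bases. It had 35.1, 42.3 and 28.7 TPM in the controls and 14.97, 17.1 and 15.3 TPM in the knockouts, by replicate number. The lowest control library was above the highest Prdm16SMKO library, so the groups did not overlap, and the Prdm16SMKO libraries lay closer to each other than the control libraries did. The mean was 15.8 ± 1.14 TPM in Prdm16SMKO and 35.3 ± 6.81 TPM in control mice (SD, n = 3 each), 44.7% of the control level. The log2 fold change was -1.12 with a standard error of 0.18, and 3.15% of the tested genes had a larger one in size. The adjusted p was 0.0468 (limma, Benjamini-Hochberg), just inside the threshold, and comes from the contrast for which the gene was chosen. It was the 1 called gene of the 5, and over all genes 0.355% were called, 0.171% as lower and 0.184% as higher. It was also the 1 gene of the 5 with an unadjusted p under 0.05, against 8.74% of all genes, and the 1 with a log2 fold change of size 1 or more, against 4.37%. Its groups alone did not overlap, against 12.8% of all genes in either direction and 5.76% in the lower direction. Of the 5 genes 4 were lower in Prdm16SMKO mice, against 45.8% of all genes. Except for the direction of the other genes, none of which was called, these counts follow from the choice of Adamtsl3. None of the counts supports anything further.

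The difference of Adamtsl3 kept its direction and most of its size in all 17 alternative fits, with log2 fold changes between -1.26 and -0.99, while the call did not hold in 10 of them. Without control replicate 1, 2 or 3 the adjusted p was 0.190, 0.120 and 0.0651, and without Prdm16SMKO replicate 1, 2 or 3 it was 0.0919, 0.128 and 0.118 (limma, Benjamini-Hochberg). Scaling the libraries by median-of-ratios size factors narrowed the standard error and gave an adjusted p of 0.0108, against 0.138 when genes of any level were tested.

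**Figure D1:**
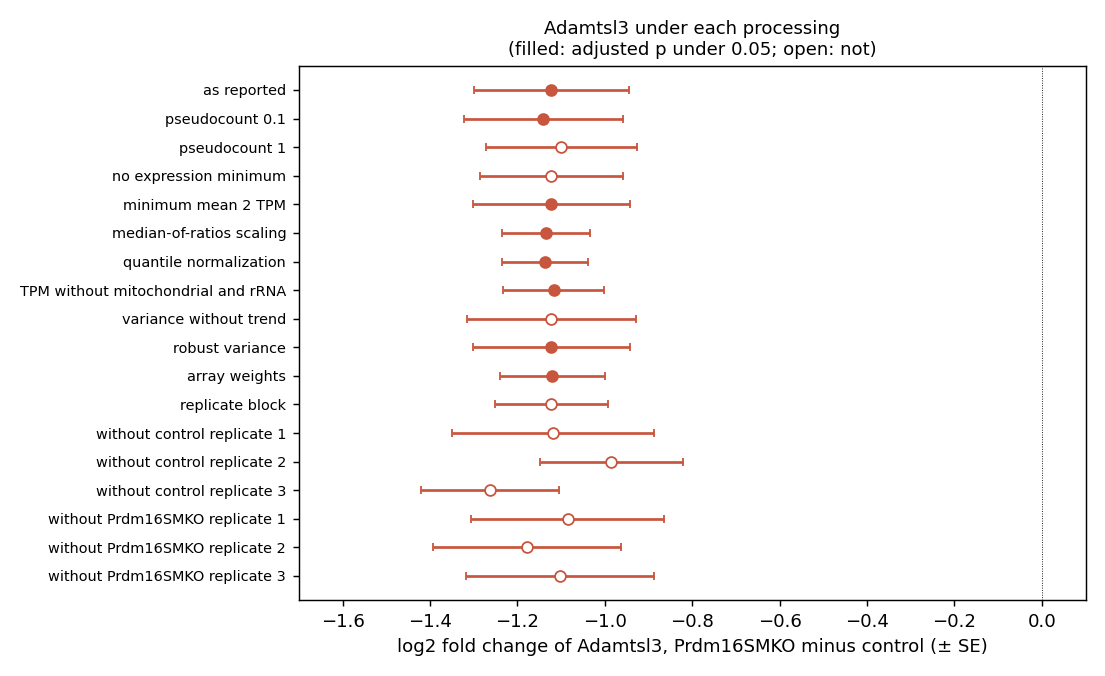
The log2 fold change of Adamtsl3 (horizontal axis, Prdm16SMKO minus control, with its standard error) is plotted for the reported fit and 17 alternatives (vertical axis), with filled points where the adjusted p was under 0.05. All points lie between -1.26 and -0.99, and the 6 fits that leave out 1 library are all open.

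Adamtsl3 was also compared with other transcripts of the same library, a ratio that no rescaling of the library can change. Its ratio to Adamtsl5 was 0.652, 0.763 and 0.669 in control and 0.407, 0.391 and 0.410 in Prdm16SMKO replicates 1, 2 and 3. Its ratio to Thsd4, a further relative without proteinase domain, was 0.228, 0.210 and 0.229 in control and 0.0975, 0.0967 and 0.116 in Prdm16SMKO replicates. Neither ratio overlapped between the groups, and their means in Prdm16SMKO mice were 58.0% and 46.5% of those in control mice. Adamtsl3 was chosen for its lower TPM, so these ratios and those below are descriptions and no separate support. In a whole aorta, fewer cells of a type and less RNA per cell cannot be told apart. Of 12 VSMC markers 8 were lower and 4 higher in Prdm16SMKO mice and none was called, with 4 at an unadjusted p under 0.05 (limma), against 8.74% of all genes, and a median log2 fold change of -0.19, and their summed level ranged from 18680 to 30730 TPM in control and from 14860 to 22900 TPM in Prdm16SMKO libraries. On the log2(TPM + 0.5) scale, Adamtsl3 minus the mean of these markers was -4.36 to -4.16 in control libraries and -5.62 to -5.05 in Prdm16SMKO libraries, a difference of -1.03 between the group means. That mean averages markers that went both ways, with Actg2 (0.87) and Des (0.51) higher and Cnn1 (-0.48) and Smtn (-0.53) lower in log2 fold change. Relative to single transcripts the ratio of Adamtsl3 in Prdm16SMKO mice was 54.1% of the control ratio for Myh11, the smooth muscle myosin, 63.1% for Acta2 and 63.5% for Fbn1, which encodes fibrillin 1. Relative to Eln the order was the other way, since Adamtsl3 was at 0.0119 to 0.0144 of the TPM of Eln in control and at 0.0182 to 0.0257 of it in Prdm16SMKO libraries.

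The promoter of Adamtsl3 is shown because the targeted gene encodes a regulator of transcription and this member had the largest difference of the 5, and that of Adamtsl2 because it is of another kind. Of the 5 genes, 4 had an entry in the RefSeq promoter table for GRCm38.p6, which gives 250 bases before and 50 after a transcription start, and Adamtsl1 was not among them. The sequences below are written 5′ to 3′ on the strand of the gene, with capitals for the GC box, GGGCGG on either strand, and for the TATA box, TATAAA on either strand. The first is chr7:82335444-82335743 on the plus strand and the second is chr2:27079129-27079428 on the plus strand.
Adamtsl3: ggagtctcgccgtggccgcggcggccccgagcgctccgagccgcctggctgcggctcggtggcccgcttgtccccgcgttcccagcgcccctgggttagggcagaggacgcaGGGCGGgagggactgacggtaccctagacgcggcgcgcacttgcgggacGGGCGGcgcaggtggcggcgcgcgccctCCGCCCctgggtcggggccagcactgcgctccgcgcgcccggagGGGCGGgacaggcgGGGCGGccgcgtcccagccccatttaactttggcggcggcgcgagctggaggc
Adamtsl2: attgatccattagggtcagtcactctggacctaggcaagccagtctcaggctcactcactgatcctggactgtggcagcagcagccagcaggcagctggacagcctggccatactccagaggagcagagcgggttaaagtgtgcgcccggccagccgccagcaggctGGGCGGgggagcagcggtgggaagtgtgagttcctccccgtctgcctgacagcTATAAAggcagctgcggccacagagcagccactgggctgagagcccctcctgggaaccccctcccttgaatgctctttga
The Adamtsl3 window held 5 GC boxes, starting 138, 89, 61, 17 and 3 bases before the start, and no TATAAA. It had 46 CG dinucleotides and a GC content of 78.7%, and 98.4% of the 32851 promoters of the same length in the table had fewer CG dinucleotides. The Adamtsl2 window held 8 CG dinucleotides, close to the median of 7 over all promoters, with 1 GC box and a TATAAA starting 30 bases before the start. The windows of Adamtsl4 and Adamtsl5 had 4 and 1 GC boxes, 24 and 29 CG dinucleotides and no TATAAA. A GC box was found in 35.7% and a TATAAA in 13.6% of all promoters of this length. Matches to CAGAC, the core letters bound by SMAD proteins, were found once each in the windows of Adamtsl2 and Adamtsl5 and in 49.6% of all promoters, on either strand. TGANTCA (AP-1), GGAATG (TEAD) and the CArG box of SRF had no match in any of the 4 windows, and were found in 7.81%, 14.7% and 1.63% of all promoters. These matches describe the letters of the windows and do not show that a factor binds there.

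Adamtsl5 (ENSMUSG00000043822; chromosome 10 of GRCm38, 80339110 to 80348412, minus strand) has the shortest coding sequence of the 5, with 1455 bases in 13 exons. It had 53.8, 55.4 and 42.9 TPM in the controls and 36.8, 43.7 and 37.4 TPM in the knockouts, by replicate number. Control replicate 3 lay just below Prdm16SMKO replicate 2, so the groups overlapped, while the other 2 control libraries were above all Prdm16SMKO libraries. The mean in Prdm16SMKO mice was 39.3 ± 3.84 TPM (SD, n = 3), 77.5% of that in control mice, with a log2 fold change of -0.36 (SE 0.16). The gene was not called in the reported fit (limma, adjusted p = 0.591) or in any alternative, where the log2 fold change ran from -0.47 to -0.29 and the adjusted p from 0.0854 to 0.979.

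Adamtsl2 (ENSMUSG00000036040; chromosome 2 of GRCm38, 27079379 to 27108981, plus strand; 19 exons and 2871 coding bases) encodes a glycoprotein known to bind latent TGF-beta binding protein 1 and fibrillin 1. It had 3.87, 9.87 and 7.53 TPM in the controls and 4.21, 5.10 and 3.27 TPM in the knockouts, by replicate number. The 2 highest values were control libraries, but control replicate 1 lay within the range of the Prdm16SMKO libraries. The log2 fold change of -0.62 (SE 0.32; limma, adjusted p = 0.681) depended most on control replicates 1 and 2. Without control replicate 2, one of the libraries with more neuron and Schwann cell transcripts, it was -0.36, and leaving out control replicate 1 gave -0.98, while leaving out control replicate 3 gave -0.54. With array weights, where a noisier library counts for less, it was 0.035, and none of the alternatives called the gene.

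Adamtsl4 (ENSMUSG00000015850; chromosome 3 of GRCm38, 95676201 to 95687917, minus strand; 18 exons and 3108 coding bases), which is known to bind fibrillin 1 microfibrils, had 13.5, 14.7 and 8.56 TPM in the controls and 9.72, 16.7 and 7.55 TPM in the knockouts, by replicate number. The highest and the lowest value were both from Prdm16SMKO mice, and the ranges of the groups overlapped over most of their width. The log2 fold change was -0.15 (SE 0.31; limma, adjusted p = 0.966) and depended on single libraries. It was -0.005 without control replicate 2 and -0.082 without Prdm16SMKO replicate 1, the libraries with more neuron and Schwann cell transcripts, and 0.090 without Prdm16SMKO replicate 3, the one with more adipocyte transcripts. It was -0.065 and -0.379 without control replicates 1 and 3. Without Prdm16SMKO replicate 2, the one with the highest summed endothelial, macrophage and fibroblast markers, it was -0.457.

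Adamtsl1 (ENSMUSG00000066113; chromosome 4 of GRCm38, 85514172 to 86428385, plus strand; 28 exons and 5259 coding bases) lies on the chromosome of Prdm16, 67.9 Mb from it. It was the 1 member with a higher mean in Prdm16SMKO mice. It had 3.13, 3.74 and 3.45 TPM in the controls and 5.96, 4.99 and 3.42 TPM in the knockouts, by replicate number. Of the Prdm16SMKO libraries 2 were above all controls, and replicate 3 lay among them. The mean was 4.79 ± 1.28 TPM (SD, n = 3) in Prdm16SMKO mice, with a log2 fold change of 0.40 (SE 0.23; limma, adjusted p = 0.739). Without Prdm16SMKO replicate 1, the library with the most neuron and Schwann cell transcripts, it was 0.24, and without Prdm16SMKO replicate 3, the one with more adipocyte transcripts, it was 0.60. The part of those cells in the levels of Adamtsl1 and Adamtsl4 was not tested.

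**Figure D2:**
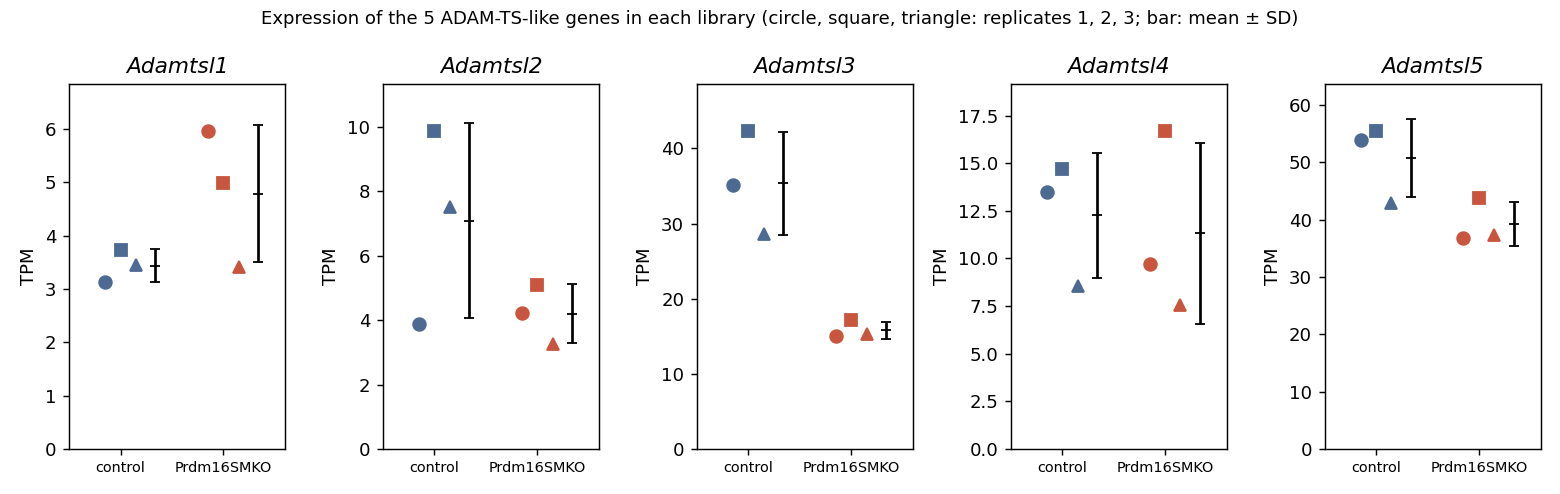
TPM of the 5 ADAM-TS-like genes (vertical axes, each from 0) in 3 control and 3 Prdm16SMKO libraries, with replicates 1, 2 and 3 as circles, squares and triangles and the mean ± SD beside them. Only in the panel of Adamtsl3 do all Prdm16SMKO points, at 14.97 to 17.1 TPM, lie below all control points, at 28.7 to 42.3 TPM.

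Summed over the 5 genes, ADAM-TS-like transcripts were had 109, 126 and 91.1 TPM in the controls and 71.7, 87.6 and 66.9 TPM in the knockouts, by replicate number. The means were 109 ± 17.5 in control and 75.4 ± 10.8 TPM in Prdm16SMKO mice (SD, n = 3 each). The groups did not overlap in this sum, which includes Adamtsl3, the gene chosen for its difference. Without Adamtsl3 the other 4 genes summed to 62.4 to 83.7 TPM in control and 51.6 to 70.5 TPM in Prdm16SMKO libraries, and the groups overlapped. Adamtsl3 made up 31.5% to 33.6% of the sum in control and 19.5% to 22.9% in Prdm16SMKO libraries. Adamtsl5 took 46.8% ± 2.62 in control and 52.3% ± 3.08 in Prdm16SMKO libraries (SD, n = 3 each), without overlap, and Adamtsl1 took 2.86% to 3.79% and 5.11% to 8.32%. Shares of one sum are tied to each other, so that the larger share of Adamtsl5 goes with the smaller one of Adamtsl3. The mean TPM of Adamtsl1 was itself higher in Prdm16SMKO mice, at 139% of control, while that of Adamtsl5 was lower. The share of Adamtsl4 was 9.40% to 12.3% in control and 11.3% to 19.0% in Prdm16SMKO libraries, that of Adamtsl2 was 3.54% to 8.27% and 4.89% to 5.88%, and both overlapped.

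**Figure D3:**
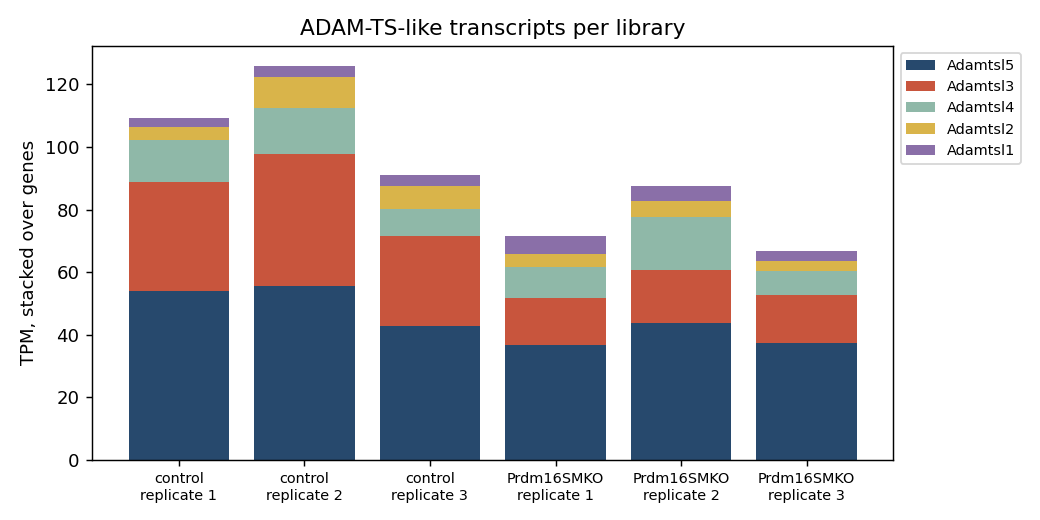
TPM of the 5 ADAM-TS-like genes stacked for each library (vertical axis, TPM; horizontal axis, group and replicate). The stacks reach 91.1 to 126 TPM in control and 66.9 to 87.6 TPM in Prdm16SMKO mice, and the segment of Adamtsl3 is smaller in each Prdm16SMKO stack than in any control stack.

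The genes do not share sequence in a way that would mix their reads. No run of 31 bases in a GENCODE M21 transcript of one of the 5 genes was found in another of them, and the share of such runs found in transcripts of any other gene, on either strand, was 0% for Adamtsl3 and Adamtsl1 and between 0.102% and 1.32% for the other 3. No exon of the 5 genes overlapped an exon of another annotated gene on either strand. After the group means were removed, Adamtsl3 varied among the 6 libraries most like Adamtsl5 (Pearson r = 0.91) and Adamtsl4 (0.76), and less like Adamtsl2 (0.33) and Adamtsl1 (0.13). These correlations are descriptions over 6 libraries, which share the scaling of each library to a common total.

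Thsd4, also known as ADAMTSL6, a microfibril-bound protein, had 154, 201 and 125 TPM in the controls and 153, 177 and 133 TPM in the knockouts, by replicate number, above each of the 5 genes in every library. The groups overlapped throughout and the log2 fold change was -0.03 (SE 0.20; limma, adjusted p = 0.992), with a sign that changed between fits. Papln, which encodes papilin, was at 0.48 to 0.84 TPM in control and 0.58 to 0.93 TPM in Prdm16SMKO libraries, with a log2 fold change of 0.12 (SE 0.32; limma, adjusted p = 0.978) that ran from 0.009 without Prdm16SMKO replicate 3 to 0.245 without control replicate 2. The enzymes that glycosylate thrombospondin repeats were expressed. None of the 4 was called (limma), against 0.355% of all genes, and none had an unadjusted p under 0.05, against 8.74%. Pofut2 was at 77.3 to 96.1 TPM in control and 67.8 to 79.0 TPM in Prdm16SMKO libraries, with a log2 fold change of -0.16 (SE 0.15), which was -0.062 without control replicate 2 and -0.093 without Prdm16SMKO replicate 3. B3glct was at 8.35 to 11.5 and 6.29 to 8.69 TPM, with -0.40 (SE 0.20), and overlapped between the groups. The C-mannosyltransferases Dpy19l1 and Dpy19l3 had log2 fold changes of -0.04 (SE 0.19) and -0.07 (SE 0.25), both of which changed sign in 2 of the 17 alternatives.

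Of 19 ADAM-TS proteinases, the relatives with a catalytic domain, 12 passed the expression minimum. None was called in the reported fit (limma, Benjamini-Hochberg), against 0.355% of all genes, or in any of the 17 alternatives. Of these 12 genes 1, Adamts2, had an unadjusted p under 0.05 (limma), against 8.74% of all genes. Their log2 fold changes ran from -0.44 to 0.47 with a median of -0.05, 8 lower and 4 higher, beside a median of 0.025 over all genes tested. The median of the list was -0.198 without Prdm16SMKO replicate 2, -0.139 without Prdm16SMKO replicate 1 and 0.025 without Prdm16SMKO replicate 3. The groups overlapped in all 12, while 12.8% of all genes had no overlap.

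Among 23 genes of microfibrils and elastic fibres, the structures that ADAM-TS-like proteins are found with, 21 passed the expression minimum, 17 lower and 4 higher in Prdm16SMKO mice, and their median log2 fold change was -0.25. Leaving out control replicate 2 moved this median to -0.125 and leaving out Prdm16SMKO replicate 1 to -0.136. Of the 21 genes, 7 had an unadjusted p under 0.05 (limma), against 8.74% of all genes, and in 8 (38.1%) the groups did not overlap, against 12.8% of all genes. Eln, which encodes elastin, was the 1 called gene of the list, where 0.355% of all genes were called. It had 2531, 3550 and 1988 TPM in the controls and 757, 941 and 597 TPM in the knockouts, by replicate number, a log2 fold change of -1.80 (SE 0.25; limma, adjusted p = 0.0312). Like that of Adamtsl3, this call was lost without any 1 of the control libraries and without Prdm16SMKO replicate 3 (adjusted p 0.0652 to 0.114). Next to Eln, the list members with the highest mean TPM over all 6 libraries were the latent TGF-beta binding proteins Ltbp4 and Ltbp1 and the microfibril-associated Mfap4. Ltbp4 was at 324 to 395 TPM in control and 265 to 400 TPM in Prdm16SMKO libraries, with a log2 fold change of -0.17 (SE 0.19) that ran from -0.354 without Prdm16SMKO replicate 2 to -0.057 without Prdm16SMKO replicate 3. Ltbp1, the partner of ADAMTSL2, was at 194 to 260 and 175 to 237 TPM, with -0.05 (SE 0.18) and a sign that changed in 3 alternatives. Mfap4 was at 261 to 426 and 183 to 242 TPM, without overlap, with -0.53 (SE 0.22; limma, adjusted p = 0.534), and without control replicate 2 it was -0.303. Among the genes without overlap, Lox, a cross-linking enzyme of elastin and collagen, was at 48.3% of the control mean (log2 fold change -1.09; limma, adjusted p = 0.108), Emilin1 at 63.4% (-0.65; 0.357) and Loxl1 at 67.6% (-0.55; 0.449). Of the 8 genes without overlap 6 were lower and 2, Efemp1 and Emilin2, higher in Prdm16SMKO mice. Emilin2 was at 1.83 to 2.01 TPM in control and 2.81 to 6.15 TPM in Prdm16SMKO libraries (log2 fold change 0.85; limma, adjusted p = 0.41). Efemp1, the list member with the highest log2 fold change, was at 3.08 to 4.13 TPM in control and 7.23 to 11.4 TPM in Prdm16SMKO libraries (limma, adjusted p = 0.0841).

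Of 21 genes of TGF-beta signalling, 20 could be tested, of which 11 were higher and 9 lower in Prdm16SMKO mice, and they had a median log2 fold change of 0.025, as over all genes. With 1 library left out the median of the list ran from -0.157, without Prdm16SMKO replicate 2, to 0.105, without control replicate 2, where those over all genes were 0.0 and 0.108. None was called (limma), against 0.355% of all genes, and 1 had an unadjusted p under 0.05, against 8.74%. With array weights, where 494 genes were called in all, 1 of the list, Tgfb2, was called. Tgfb2, a ligand, had 19.7, 25.1 and 20.4 TPM in the controls and 32.3, 34.9 and 27.2 TPM in the knockouts, by replicate number, with a log2 fold change of 0.53 (SE 0.17; limma, adjusted p = 0.379).

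**Figure D4:**
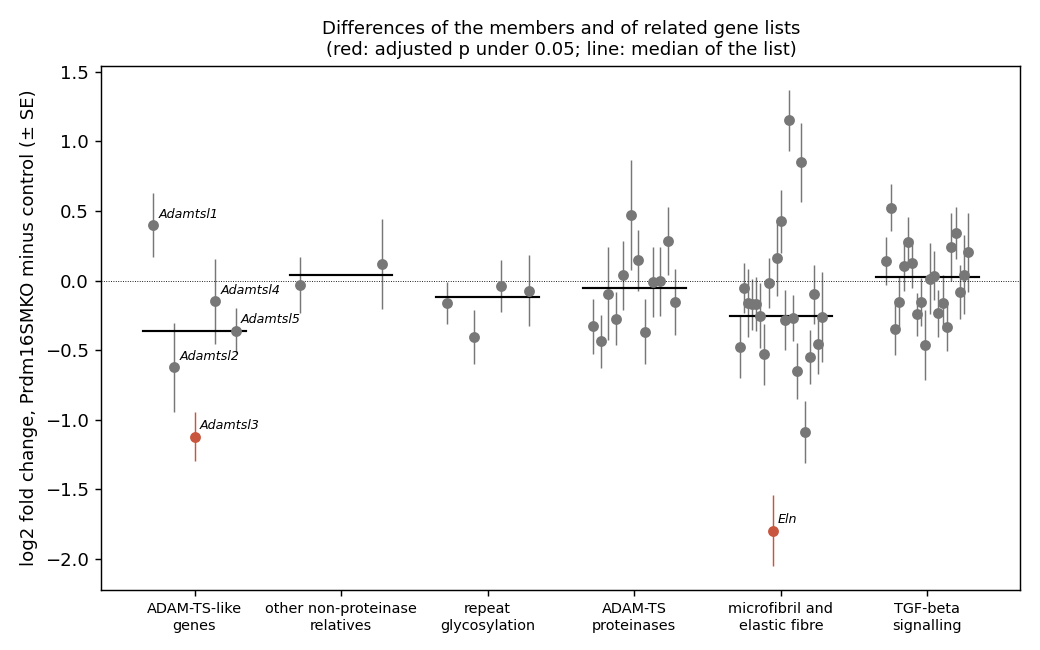
Log2 fold changes (vertical axis, Prdm16SMKO minus control, ± SE) of the 5 ADAM-TS-like genes and of the tested genes of 5 related lists (horizontal axis), with the median of each list as a line and called genes in red. Adamtsl3 at -1.12 and Eln at -1.80 are the 2 called genes shown, and the ADAM-TS proteinases stay between -0.44 and 0.47.

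Genes whose pattern was most like that of Adamtsl3 were ranked by Pearson's r of log2(TPM + 0.5) over the 6 libraries among 9668 other genes whose mean reached 5 TPM. These r are descriptions with no test, since the 6 libraries fall into 2 genotypes and share their scaling. A gene picked for its likeness to Adamtsl3 is thereby picked for a difference between the genotypes, so the fold changes and adjusted p of these genes are descriptions too. The highest were Sh3pxd2a (r = 0.995), which encodes a scaffold protein of podosomes, the ubiquitin ligase gene Fbxo30 (0.995), Ccdc42 (0.992), Rilp (0.991) and Eln (0.989). Within the genotypes, after the group means were removed, r with these 5 was between 0.89 and 0.96, a value that the ranking itself includes. Ccdc42 was at 36.4 to 51.9 TPM in control and at 14.8 to 16.0 TPM in Prdm16SMKO libraries (log2 fold change -1.41, SE 0.17; limma, adjusted p = 0.0164), and the call was lost in 7 of the 17 alternatives, with adjusted p up to 0.120. The lowest r were those of Taf10 (-0.986), Mid1 (-0.973), Bbc3 (-0.970), Gm14391 (-0.959) and Nmnat1 (-0.957), and after the group means were removed these were -0.906, -0.598, -0.739, -0.892 and -0.463. Mid1, a microtubule-associated ubiquitin ligase gene, was at 4.75 to 6.38 TPM in control and at 15.2 to 19.1 TPM in Prdm16SMKO libraries (log2 fold change 1.56, SE 0.18; limma, adjusted p = 0.0159), and lost the call in 6 of the 17 alternatives, with adjusted p up to 0.140. Bbc3, which encodes the pro-apoptotic protein PUMA, was at 3.48 to 5.33 and 8.19 to 10.5 TPM, without overlap, and was not called (log2 fold change 1.02, SE 0.21; limma, adjusted p = 0.10). Taf10, Gm14391 and Nmnat1 had log2 fold changes of 0.16 to 0.45 and were not called.

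**Figure D5:**
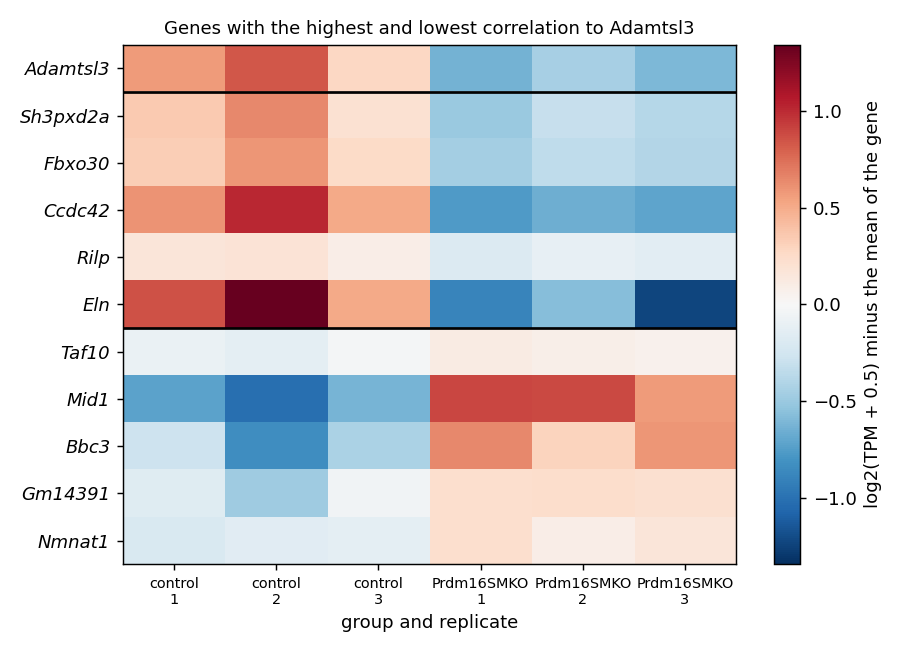
Log2(TPM + 0.5) minus the mean of the gene (colour) for Adamtsl3 and for the 5 genes with the highest and the 5 with the lowest correlation to it (vertical axis) in the 6 libraries (horizontal axis). Control replicate 2 is the highest of the controls for Adamtsl3 and for all 5 genes under it, and the lower block runs the other way between the groups.

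Markers of other cells were read beside these results, where 0.355% of all genes were called. All 7 macrophage markers were higher in Prdm16SMKO mice, with a summed level of 70.2 to 109.6 TPM in control and 110.3 to 201 TPM in Prdm16SMKO libraries, 5 of them at an unadjusted p under 0.05, against 8.74% of all genes, and none called (limma). Of 8 endothelial markers 7 were higher, with sums of 203 to 256 and 224 to 436 TPM. Of 10 fibroblast markers 7 were higher, with sums of 2334 to 2484 and 1767 to 3075 TPM. None of either list was called (limma), with 2 and 1 at an unadjusted p under 0.05, read against the same 8.74%. The highest sums of macrophage, endothelial and fibroblast markers were all those of Prdm16SMKO replicate 2. Adipocyte markers summed to 489 to 1000 TPM in control and 462 to 2516 TPM in Prdm16SMKO libraries, with 5 of 6 higher and none called. The 12 immediate-early genes, which answer to handling of tissue as well as to signals, were all lower in Prdm16SMKO mice, at a median log2 fold change of -1.33, with 6 called against 0.355% of all genes and 9 without overlap against 12.8%, and their sum went from 610 to 839 TPM in control to 218 to 366 TPM in Prdm16SMKO libraries. Markers of lymphocytes summed to 0.40 to 3.90 TPM and those of mesothelium to 0.03 to 0.64 TPM over all libraries. Cartilage markers summed to 4.37 to 6.80 TPM in control and 2.28 to 2.78 TPM in Prdm16SMKO libraries, without overlap. Most of the sum in control was Acan, which encodes aggrecan and was at 36.5% of its control mean (limma, adjusted p = 0.191). Only 2 of the 5 genes could be tested, and 1 of these had no overlap, against 12.8% of all genes. Col2a1, Sox9 and Matn3 also had lower means in Prdm16SMKO mice, and Col9a1 had a higher one. Skeletal muscle and cardiomyocyte markers summed to 2.50 to 70.9 and 17.8 to 26.9 TPM over all libraries, and none was called. The part of these markers in the differences of the ADAM-TS-like genes was not tested.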

How the data were processed

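RNA of 6 abdominal aortas, 3 per genotype, was read as polyadenylated 151 bp paired-end libraries; the labels give an average depth only, and no depth of each library. The authors deposited TPM values rounded to 2 decimals. The submitters' processing notes name cutadapt 2.3, STAR 2.7.8a, RSEM 1.3.3 and GRCm38, and the annotation is not given in the sources used here. TPM keep no depth, and reads of one gene depend on how RSEM shared them among transcripts. The deposited values were joined to the labels by library name, and 0 pairs of libraries were identical.

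The fit used limma 3.58.1 in R 4.3.3 on log2(TPM + 0.5), two-sided, with moderated variances fitted with a trend over mean expression. It was also run on simulated data with noise drawn independently for each gene and library, which leaves out shifts shared by many genes. The members, the gene lists and the naming rule (all members, their relatives, called genes of 3 lists, the 4 microfibril genes of highest TPM and the 5 most and least correlated genes) were chosen with earlier results of these data known. Adamts2, Efemp1, Lox, Emilin1, Emilin2, Loxl1, Tgfb2, Acan, Adipoq, Ucp1, Actg2, Des, Cnn1, Smtn, Myh11, Acta2, Fbn1 and Th were named after their values were seen. The p-values set a difference against the spread between 3 mice per group, with the variance of each gene drawn towards the trend over mean expression. Alternatives were pseudocounts of 0.1 and 1, no minimum or 2 TPM, 3 scalings, 3 variance settings, a replicate block and leaving out each of 6 libraries. Gene models are from GENCODE M21 on GRCm38. Tables were made with Python 3.11.15, pandas 2.3.3 and scipy 1.17.1.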

Additional observations from a re-analysis of the deposited data

How the results depend on the processing

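The log2 fold change of Adamtsl3 kept its direction in all 17 alternatives, and its call was lost at a pseudocount of 1 (-1.10, adjusted p 0.0511), with no expression minimum (-1.12, adjusted p 0.138), with variances without a trend (-1.12, adjusted p 0.118) and with the replicate block (-1.12, adjusted p 0.148), and between -1.26 and -0.99 with 1 library left out (limma). Over all genes the 56 calls became 10 with no minimum, 153 with median-of-ratios scaling, 129 with quantile normalization, 123 without mitochondrial and ribosomal RNA transcripts, 33 without a trend, 112 with robust variances, 494 with array weights, and 5 to 61 with 1 library left out, 5 of them without control replicate 2, 17 without control replicate 1 or 3 and 28 without Prdm16SMKO replicate 2. Higher calls were 29 of 56, and 60 of 153, 46 of 129 and 55 of 123 under the 3 scalings. With the replicate block the number was 4. Same-numbered libraries of the groups did not vary together (correlations over genes of -0.13, -0.11 and 0.02). Deviations from the mean of a small group are tied to each other, so these values cannot decide whether the numbers pair any mice. Called microfibril and elastic fibre genes went from 1 to 0 with no minimum, without a trend or with the replicate block, to 2 with robust variances and 3 with array weights, and ran from 0 to 2 with 1 library left out, and TGF-beta signalling genes from 0 to 1 with array weights. The cause of these moves was not tested. The sign turned for Adamtsl2 with array weights (0.035), for Thsd4 with quantile normalization (0.002) and array weights (0.019) and for Ltbp1 with array weights (0.029). With 1 library left out, the ranges were -0.46 to 0.090 for Adamtsl4, -0.20 to 0.144 for Thsd4, -0.16 to 0.091 for Dpy19l1, -0.26 to 0.129 for Dpy19l3 and -0.14 to 0.082 for Ltbp1.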
